A study of Homo sapiens with 14 samples.

Results

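RS4;11, a line of human B-precursor acute lymphoblastic leukemia with a rearranged KMT2A gene, was compared after 24 h in dexamethasone with untreated cells. Dexamethasone is a synthetic glucocorticoid and an agonist of the glucocorticoid receptor (GR). The comparison took all arrays that the labels call treated for 24 h, 5 in number, and all arrays called untreated, 4 in number, from the 14 arrays of the series. The other 5 arrays hold cells after 8 h in the same dose and served the model only, except where a value against 8 h is given. Dexamethasone was added in ethanol to 10 nM, and cells of every group had spent 48 h in medium with hormone-stripped serum. No array holds cells kept for 24 h without dexamethasone, so effects of the drug and of a further day in culture cannot be told apart.

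A ligand-bound GR moves to the nucleus, binds DNA and changes the transcription of its target genes. Lymphoid precursors are known to answer glucocorticoids by stopping growth and leaving the cell cycle, and the cells often die afterwards, which is why these steroids are used against acute lymphoblastic leukemia. Cell growth depends on ribosomes, amino acids and nucleotides, many of whose genes are MYC targets. Entry into DNA replication depends on cyclins and kinases that release the E2F factors from the RB family, while the mitotic genes are switched by a separate complex of B-MYB, FOXM1 and MuvB proteins.

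Of 22277 probe sets in the table, 19070 carried exactly 1 gene and were averaged to 11963 genes. Values are log2 expression values as deposited. The labels give each array a date and a letter, here called a run, and runs 1 to 4 hold 1 array of each group while run 5 has no untreated array. Runs 1 and 2 carry the same date and are together called day 1, and the other runs carry a date each. Run 5 is replicate 4 of the 24 h arrays and run 4 is their replicate 5, paired with untreated replicate 4. The limma model took in every array and had the run as a block, and a gene passed at a Benjamini-Hochberg adjusted p below 0.05. Array medians lay between 6.03 and 6.05 in untreated cells and between 6.07 and 6.11 at 24 h. Whether each replicate was a culture of its own is not stated, and the p-values therefore rest on an array-to-array spread that could be technical. In bulk RNA, fewer cells of a state and less RNA per cell cannot be told apart.

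After 24 h, 2654 genes were higher (22.2% of those tested) and 2871 were lower (24%). At least 2-fold changes were fewer, with 367 genes higher (3.07%) and 417 lower (3.49%). The 24 h and untreated arrays did not overlap in 4225 genes (35.3%). The median log2 fold change of all genes was −0.01, and the 5th and 95th percentiles were −0.85 and 0.74. Counts of list members that passed are to be read against these shares.

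**Figure D1:**
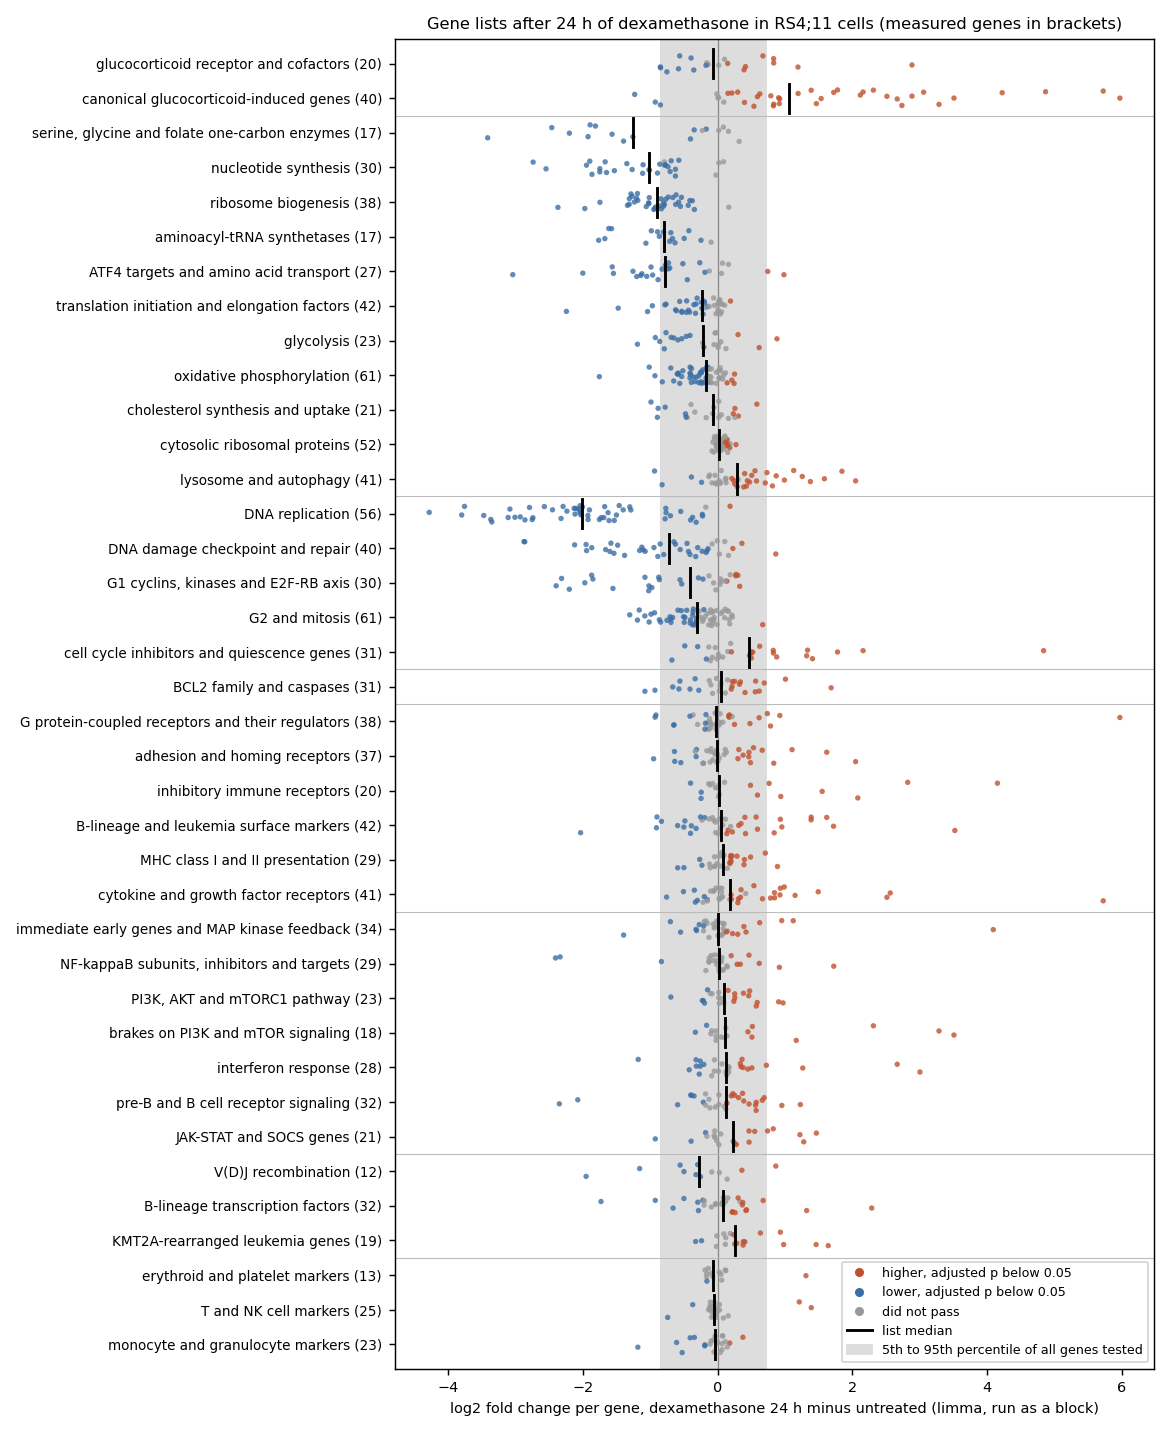
Log2 fold change of each measured gene in 38 lists, 24 h minus untreated (x axis), with 1 row a list and points jittered vertically. Black bars mark list medians and the grey band spans the 5th to the 95th percentile of all 11963 genes. The DNA replication list lies farthest to the left, with a median of −2.02, and the medians of most surface and signalling lists lie close to 0 while single members stand far out on either side.

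The arrays carried the mark of a steroid response. FKBP5, the GR co-chaperone that GR itself induces, stood at 5.29, 5.18, 4.84 and 5.04 on the untreated arrays and at 8.21, 8.15, 7.73, 7.65 and 7.66 at 24 h. TSC22D3, which encodes the leucine zipper protein GILZ, stood at 8.81, 8.87, 8.64 and 8.65 untreated and at 11.53, 11.41, 11.44, 11.63 and 11.43 at 24 h. Every treated array lay above every untreated array for both genes, and the log2 fold changes were 2.89 (SE 0.12, adjusted p = 1.75e-09) and 2.74 (SE 0.07, adjusted p = 2.32e-11). A list of genes known as glucocorticoid-induced was written with earlier results of these data known. It includes P2RY14 and IL1R2, both among the largest rises here, so its counts are a description only. Of its 40 measured genes, 33 were higher and 3 lower, with a median of 1.06.

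The 3 exceptions were CEBPB (−1.23), a C/EBP factor of inflammation, BCL6 (−0.92), a transcriptional repressor, and the GR chaperone gene FKBP4 (−0.85). NR3C1, which encodes GR, lay between 11.62 and 11.73 in untreated cells and between 12.40 and 12.59 at 24 h, a rise of 0.83 (SE 0.05, adjusted p = 3.46e-08). The mineralocorticoid receptor gene NR3C2 rose by 1.19, and the coactivator gene NCOA1 rose by 0.83. HSP90AB1, a chaperone of the unliganded receptor, fell by 0.75 and TRIM28, a corepressor gene, fell by 0.85. The 20 measured genes of GR and its cofactors were thus split, 8 higher and 8 lower, and their median of −0.06 turned to 0.00 within day 1.

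Growth genes were lower in several lists, while few ribosomal protein genes passed. MYC, the growth-promoting transcription factor, stood at 12.22, 12.26, 11.92 and 12.02 on the untreated arrays and at 11.14, 11.12, 10.99, 11.32 and 11.17 at 24 h. The groups did not overlap, and MYC fell by 0.98 (SE 0.06, adjusted p = 7.23e-08), or 1.97-fold. Against 8 h its difference was 0.15 (adjusted p = 0.0582), which did not pass.

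Ribosome biogenesis, the making of ribosomes in the nucleolus, had 37 of 38 measured genes lower and none higher, with a median of −0.90. BYSL, needed for the small subunit, fell from 8.94, 9.03, 9.32 and 9.31 to 6.67, 6.72, 6.71, 6.93 and 6.93 (log2 fold change −2.37, SE 0.08, adjusted p = 3.97e-10). MRTO4 (−1.97) and WDR12 (−1.75), both of the large subunit pathway, followed. In each of runs 1 to 4 the list's median lay between −1.07 and −0.74.

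The cytosolic ribosomal proteins differed from this picture. Of 52 measured genes, 6 were higher, none was lower and 46 did not pass. Their median was 0.03, and −0.02 once all arrays were shifted to the same median. RPL35A had the largest rise, 0.27, as a mean of 3 probe sets at 0.11 to 0.59, and it did not pass with the probe set of the highest mean (0.11), and RPL34 rose by 0.18, an amount that did not pass after that shift. The call of RPL34 was also lost without untreated replicate 4 (adjusted p = 0.0628) and without 24 h replicate 5 (adjusted p = 0.0549). The median untreated level of the list was 13.63, close to the top of the measured range.

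Among 42 translation factors, 25 were lower and 1, EIF3H at 0.19, was higher, with a median of −0.22. EIF4EBP1, the mTORC1 substrate that blocks the cap-binding factor EIF4E, stood at 10.17, 10.31, 8.83 and 8.98 untreated and at 7.67, 7.73, 6.93, 7.26 and 7.01 at 24 h. The arrays of day 1, replicates 1 and 2, were the highest within each group, and the groups did not overlap. The gene fell by 2.24 (SE 0.12, adjusted p = 1.45e-08), and within runs the difference lay between −2.57 and −1.90. EIF2B3, a subunit of the exchange factor for EIF2, fell by 1.48 and TSFM, a mitochondrial elongation factor gene, by 1.04.

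Amino acid supply and charging were lower as well. Of 17 genes for aminoacyl-tRNA synthetases, which load amino acids onto tRNA, 16 were lower and none was higher (median −0.80). IARS1, the isoleucine enzyme, fell from 12.09, 12.09, 11.63 and 11.79 to 10.15, 10.17, 10.18, 10.20 and 10.12. The treated arrays lay close together below all untreated ones, and the fall was 1.77 (SE 0.08, adjusted p = 4.01e-09). WARS1 (−1.67) and YARS1 (−1.62), for tryptophan and tyrosine, were next.

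Targets of ATF4, the factor of the amino acid response, and amino acid transporters had 21 of 27 genes lower and 2 higher, with a median of −0.78. ASS1, which makes the arginine precursor argininosuccinate, fell most, from 11.86, 11.91, 10.50 and 10.18 to 8.54, 8.78, 7.23, 7.94 and 7.60. The arrays of day 1 were the highest of both groups, and no treated array reached the lowest untreated one (log2 fold change −3.04, SE 0.14, adjusted p = 3.29e-09). The stress-response gene ATF3 fell 4-fold and CHAC1, another, fell by 1.56. ASNS, asparagine synthetase and a classic ATF4 target, had a log2 fold change of −0.12 (adjusted p = 0.698). SLC7A5, the leucine transporter, fell by 0.45, a call lost without untreated replicate 1 (adjusted p = 0.0742), untreated replicate 2 (0.0738) or 24 h replicate 1 (0.0507). The 2 that rose were SLC7A6 (0.99) and SLC38A1 (0.75), both amino acid transporters.

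Serine, glycine and folate enzymes, which feed 1-carbon units into nucleotides, had a median of −1.26 (−1.01 within days 2 to 4), with 12 of 17 lower and none higher. PHGDH, the first enzyme of serine synthesis, stood at 10.67, 10.69, 9.87 and 9.93 untreated and at 8.10, 8.27, 8.04, 8.14 and 8.12 at 24 h. The treated arrays were closer together than the untreated ones, with no overlap, and the fall was 2.20 (SE 0.14, adjusted p = 5.13e-08). GLDC of the glycine cleavage system fell by 3.41 and the folate enzyme gene MTHFD1 by 2.46.

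Nucleotide synthesis had 26 of 30 genes lower and none higher, with a median of −1.01. NME1, a nucleoside diphosphate kinase gene, fell from 11.95, 12.11, 12.18 and 12.36 to 9.82, 9.88, 9.25, 9.46 and 9.45 (log2 fold change −2.55, SE 0.12, adjusted p = 6.02e-09). TK1, the thymidine kinase of proliferating cells, fell by 2.74, the purine enzyme PFAS by 1.95, the pyrimidine enzyme CAD by 1.75, RRM2 of ribonucleotide reductase by 1.90 and TYMS, thymidylate synthase, by 1.01. Of these, TK1 differed from its 8 h level by −2.57 (adjusted p = 2.86e-10).

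Energy metabolism moved less. Oxidative phosphorylation had 39 of 61 genes lower and 4 higher, but its median was only −0.18. ATP5MC1, a proton channel subunit of ATP synthase, stood apart with a fall of 1.75 (SE 0.08, adjusted p = 4.09e-09), from between 10.42 and 10.66 to between 8.38 and 9.08. NDUFV1 of complex I fell by 1.01 and cytochrome c, CYCS, by 0.93. UQCRB rose by 0.25 and ATP5F1E by 0.21. ATP5F1C rose by 0.25 as a mean of 4 probe sets that ran from −0.08 to 1.20.

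Glycolysis had 12 of 23 genes lower and 3 higher, with a median of −0.22 that lay between −0.44 and 0.03 in single runs. LDHA, lactate dehydrogenase, stood at 13.08, 13.05, 13.26 and 13.23 untreated and at 12.71, 12.92, 11.97, 11.99 and 12.04 at 24 h. Treated replicates 1 and 2, both of day 1, lay well above the other treated arrays, and within runs 1 to 4 the difference was −0.38, −0.13, −1.29 and −1.18. PFKM, a phosphofructokinase gene, fell by 1.19 and GPI by 0.92. ALDOC fell by 0.86 with overlapping groups and an adjusted p of 0.0462 that was lost under 6 of the 9 omissions of an array (0.0561 to 0.173). PFKFB3, whose product makes the activator of phosphofructokinase, rose by 0.88 (SE 0.16, adjusted p = 0.00048), and it differed from 8 h by 1.27 (adjusted p = 2.57e-05). HK1 rose by 0.30, and PFKFB2 rose by 0.62 as a mean of 2 probe sets at −0.19 and 1.43. SLC2A3, a glucose transporter, had a log2 fold change of 0.05 (adjusted p = 0.715).

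Cholesterol synthesis had no common direction, with 4 of 21 genes higher and 6 lower and a median of −0.07. TM7SF2 (0.58), IDI1 (0.31) and the sterol sensor partner SCAP (0.26) rose, and ACAT2 (−0.99), FDPS (−0.89) and EBP (−0.88) fell. The rise of IDI1 was lost under 7 of the 9 omissions of an array (adjusted p = 0.0510 to 0.152).

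The lysosome and autophagy list was the growth-related group that rose, with 23 of 41 genes higher, 4 lower and a median of 0.29. WIPI1, a protein of the forming autophagosome, stood at 6.02, 5.52, 6.76 and 6.50 untreated and at 8.13, 8.03, 8.68, 8.21 and 8.30 at 24 h. Cathepsin B, CTSB, stood at 6.64, 6.75, 6.48 and 6.24 untreated and at 8.34, 8.46, 8.39, 8.25 and 8.24 at 24 h. Neither gene had overlapping groups, and they rose by 2.05 (SE 0.11, adjusted p = 1.17e-08) and 1.85 (SE 0.07, adjusted p = 8.19e-10). ULK1, the kinase that starts autophagy, rose by 1.59. Among those lower were the lysosomal enzymes CTSC (−0.94), GLA (−0.82) and GUSB (−0.39).

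**Figure D2:**
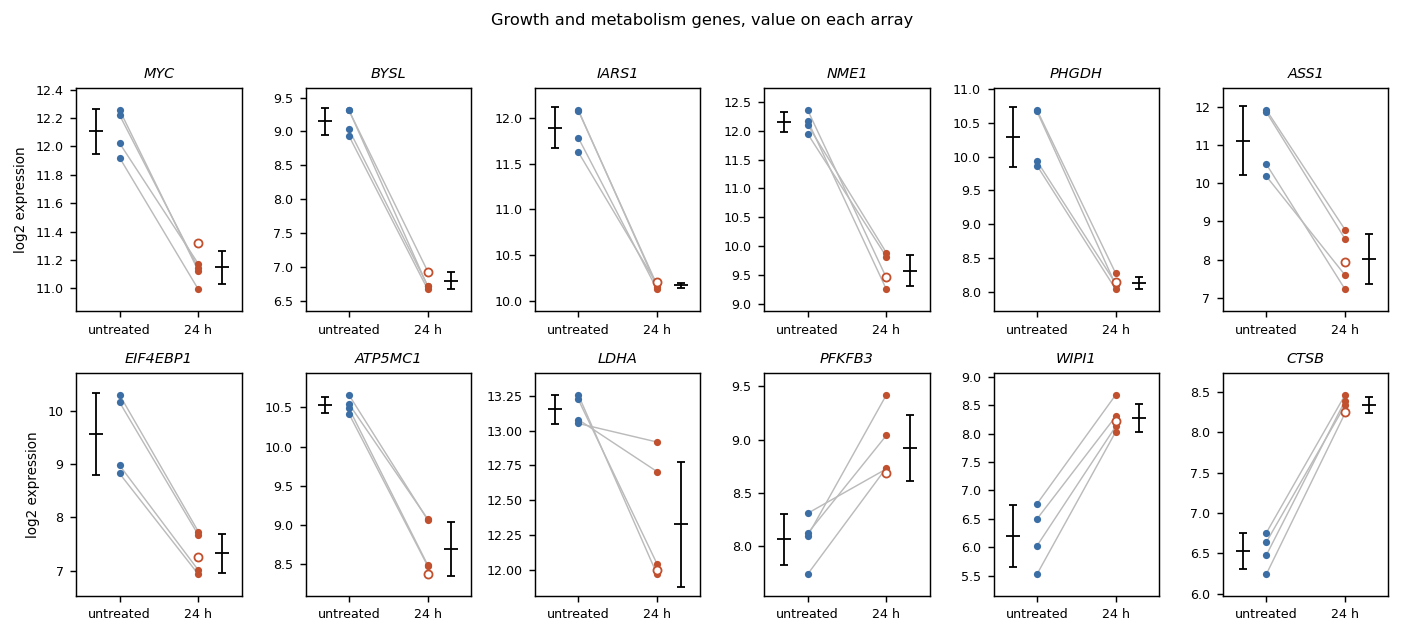
Log2 expression (y axis, its own range in each panel) of 12 growth and metabolism genes on the 4 untreated (blue) and 5 24 h arrays (red). Grey lines join arrays of the same run, the open circle is the 24 h array of run 5, and black marks give mean and SD. MYC to ATP5MC1 lie lower at 24 h without overlap, LDHA splits by day at 24 h, and PFKFB3, WIPI1 and CTSB lie higher.

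Of the 38 lists, DNA replication had the median farthest from 0. Here 54 of 56 measured genes were lower, 1 was higher and the median was −2.02, below the 1st percentile of all genes (−1.66). Of these genes, 44 were at least 2-fold lower. The list held 8 of the 10 genes with the largest falls, and its median in single runs lay between −2.09 and −1.76. Like the other lists, it was written with earlier results of these data known, so these counts and its rank are a description only. GINS2, a subunit of the CMG helicase that unwinds DNA, stood at 11.12, 11.17, 10.90 and 10.90 untreated and at 6.68, 7.04, 6.59, 6.31 and 6.77 at 24 h. The groups lay far apart, and GINS2 had the largest fall of the genes that passed without overlap (log2 fold change −4.28, SE 0.07, adjusted p = 1.3e-12), 19.5-fold.

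CDC6, which helps to load the MCM ring of that helicase onto origins, stood at 8.89, 8.84, 8.83 and 9.07 untreated and at 4.94, 4.96, 5.02, 5.09 and 5.48 at 24 h. MCM4, one of the helicase's ring subunits, stood at 9.69, 9.55, 9.44 and 9.54 untreated and at 6.21, 6.26, 6.12, 6.05 and 6.15 at 24 h. The treated arrays of both genes lay far below all untreated ones, with falls of 3.80 (SE 0.07) and 3.37 (SE 0.05). Those of MCM4 lay tightly together, while replicate 5 stood above the other treated arrays for CDC6. MCM10 (−3.76), DTL (−3.47), the uracil glycosylase UNG (−3.35), CDC45 (−3.11) and the polymerase epsilon subunit POLE2 (−3.08) were as far down, and the ring subunits MCM2 (−2.79) and MCM6 (−2.75) and the clamp PCNA (−2.45) fell less. ORC4, of the origin recognition complex, was the single gene that rose, by 0.19.

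Against the 8 h arrays, 53 of the 56 replication genes were lower at 24 h and none was higher, where 17.4% of all genes were lower and 19% higher. The median of the list was −0.37 at 8 h against untreated cells. These comparisons share the 8 h arrays.

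Promoter sequence was looked at for these genes because replication genes are known E2F targets. E2F sites were searched on both strands as TTTCCCGC, TTTGGCGC, TTTCGCGC and TTTGCCGC in the 250 bases upstream of the start, from RefSeq on GRCh38.p14. Of 49 replication genes with a promoter in the table, 12 held such a site (24.5%), against 4.0% of 9563 promoters of genes tested and 2.8% of all 35116 promoters. A match is a description of letters and not evidence of binding. The stretches shown belong to 4 of these 12 genes, all with large falls, with the site in capitals, written 5′ to 3′ on the gene's strand. They are examples, and a gene with a site and a larger fall can have been left out. GINS2 lies at chr16:85688955-85689025 (minus strand), DTL at chr1:212035700-212035747 (plus strand), MCM6 at chr2:135876482-135876635 (minus strand) and TIPIN, a replication fork protection gene that fell by 2.74, at chr15:66356700-66356791 (minus strand).
GINS2: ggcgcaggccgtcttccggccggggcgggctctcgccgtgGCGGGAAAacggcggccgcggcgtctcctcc
DTL: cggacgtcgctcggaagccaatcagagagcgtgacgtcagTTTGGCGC
MCM6: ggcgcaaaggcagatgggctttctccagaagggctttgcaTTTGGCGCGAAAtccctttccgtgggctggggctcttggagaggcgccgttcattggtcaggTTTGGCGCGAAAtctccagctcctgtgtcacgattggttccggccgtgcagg
TIPIN: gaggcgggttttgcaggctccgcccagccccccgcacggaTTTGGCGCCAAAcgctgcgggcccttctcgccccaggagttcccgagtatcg
In MCM6 and TIPIN each capital run of 12 letters is a pair of overlapping matches, one on each strand, so MCM6 counts 4 matches and TIPIN 2. The 16 upstream matches of the replication genes lay at a median of 64 bases before the start, 11 of them within 100 bases. Over all genes tested, 397 matches lay at a median of 121 bases before the start, 165 of them within 100 bases. Overlapping matches on opposite strands were counted separately, so a match is not always a site of its own.

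The G1 machinery that feeds replication fell in part, with 17 of 30 genes lower and 5 higher and a median of −0.41. CCNE1, cyclin E1, stood at 8.21, 8.09, 8.10 and 8.16 untreated and at 5.85, 5.79, 5.69, 5.89 and 5.46 at 24 h, a fall of 2.40 (SE 0.09, adjusted p = 9.14e-10). Its difference from the 8 h arrays was −2.25 (adjusted p = 2.96e-09). CCNE2, cyclin E2, which is closely related, had a log2 fold change of 0.11 (adjusted p = 0.289).

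CDK4, the kinase of cyclin D, fell by 1.87 (SE 0.06, adjusted p = 2.6e-10), from between 10.84 and 10.97 to between 9.02 and 9.18. CCND3, the cyclin D gene of B-cell precursors, stood at 11.84, 11.85, 11.91 and 11.76 untreated and at 11.01, 11.02, 10.85, 11.20 and 10.99 at 24 h, a fall of 0.86 with no overlap. CCND2 lay at 3.14 to 3.29 on all 9 arrays, and CDK6 had a log2 fold change of 0.19 (adjusted p = 0.149). Of the regulators, E2F1 (−1.02), E2F2 (−0.87, with overlapping groups), E2F8 (−1.85) and MYBL2, which encodes B-MYB (−1.97), fell. The RB relative RBL1 (−2.32) and the phosphatase CDC25A (−2.20, with probe sets at −2.93 and −1.47) fell too. RB1 (0.27), E2F3 (0.30), TFDP2 (0.33) and CDK7 (0.28) rose, each with overlapping groups. The call of TFDP2 was lost without untreated replicate 3 (adjusted p = 0.0770), untreated replicate 4 (0.0843) or 24 h replicate 5 (0.0576).

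Genes of cycle inhibition and quiescence had 17 of 31 members higher, 4 lower and a median of 0.47. CDKN1B, the inhibitor p27, stood between 11.23 and 11.57 untreated and between 11.81 and 12.06 at 24 h, a rise of 0.50 (SE 0.07, adjusted p = 0.000102) without overlap. CDKN1A, the inhibitor p21, went the other way and fell by 0.49 (SE 0.07, adjusted p = 8.39e-05), from between 8.87 and 9.44 to between 8.48 and 8.83. CDKN2D, the inhibitor p19, rose by 0.50 as a mean of probe sets at 0.02 and 0.99, and CDKN1C had a log2 fold change of −0.11 (adjusted p = 0.0719).

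KLF2, a factor of lymphocyte quiescence, rose 28.7-fold (log2 fold change 4.84, SE 0.10, adjusted p = 4.68e-12), from between 5.25 and 5.57 to between 9.92 and 10.50. TXNIP, an inhibitor of glucose uptake and thioredoxin, rose by 2.16 and the antiproliferative gene BTG1 by 1.78. BTG3 fell by 0.68 as a mean of probe sets at −1.09 to 0.13. KLF4 fell by 0.29 as a mean of probe sets at −0.60 and 0.01. RBL2, the RB relative of resting cells, had a log2 fold change of 0.19 (adjusted p = 0.0557).

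Mitotic genes were lower to a smaller extent. Of 61 measured genes of G2 and mitosis, 31 were lower, 1 was higher and 29 did not pass, with a median of −0.31. The median lay between −0.48 and −0.10 in single runs and was −0.18 within day 1. CCNB1, cyclin B1, stood at 10.72, 10.68, 10.76 and 11.14 untreated and at 10.84, 10.85, 10.91, 10.60 and 10.84 at 24 h. MKI67, the proliferation antigen Ki-67, stood at 8.94, 8.98, 9.07 and 9.28 untreated and at 8.98, 9.04, 9.21, 8.87 and 8.94 at 24 h. For both genes the groups overlapped and the log2 fold changes were −0.00 (95% interval −0.23 to 0.22, adjusted p = 0.978) and −0.07 (95% interval −0.27 to 0.13, adjusted p = 0.595). PLK1 (−0.08) and TOP2A (−0.01) did not pass either.

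CCNA2, cyclin A2, which serves both S phase and mitosis, fell by 0.53 (SE 0.09, adjusted p = 0.00034), CDK1 by 0.32 and FOXM1 by 0.71. The call of CDK1 was lost without untreated replicate 4 (adjusted p = 0.0871) or 24 h replicate 5 (0.0639). SPC25 of the kinetochore fell most in this list, by 1.30 (SE 0.11, adjusted p = 5.5e-07), from between 8.47 and 8.94 to between 6.79 and 7.59. SMC2, of condensin, fell by 1.19 and CENPN by 1.16, while SMC4, the partner of SMC2 in condensin, rose by 0.67. Compared with 8 h, 46 of the 61 genes were lower at 24 h and 1 was higher. Their median was 0.18 at 8 h against untreated cells, and MKI67 differed between 24 h and 8 h by −0.61 (adjusted p = 0.00011).

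The promoters of mitotic genes held other letters than those of replication genes. The CHR element, searched as TTTGAA on both strands, stood upstream of 29 of 52 mitotic genes (55.8%), of 2 of 49 replication genes (4.1%) and of 10.0% of genes tested. The CCAAT box stood upstream of 76.9% of mitotic genes, 51.0% of replication genes and 35.0% of genes tested. E2F letters stood upstream of 3.8% of mitotic genes. CHR and CCAAT letters are known features of mitotic promoters.

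DNA damage checkpoint and repair genes, many of which act at replication forks, had 32 of 40 genes lower and 3 higher, with a median of −0.72. CHEK1, the checkpoint kinase of stalled forks, stood at 9.47, 9.45, 9.24 and 9.43 untreated and at 6.49, 6.15, 6.69, 6.28 and 6.84 at 24 h, a fall of 2.87 (SE 0.11, adjusted p = 7.46e-10). The nuclease gene EXO1 (−2.86) and the recombination gene RAD54L (−2.12) fell as well. LIG4 (0.86), ATM (0.36) and XPA (0.23) rose. The call of ATM was lost without untreated replicate 3 (adjusted p = 0.0548) or 4 (0.0597).

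**Figure D3:**
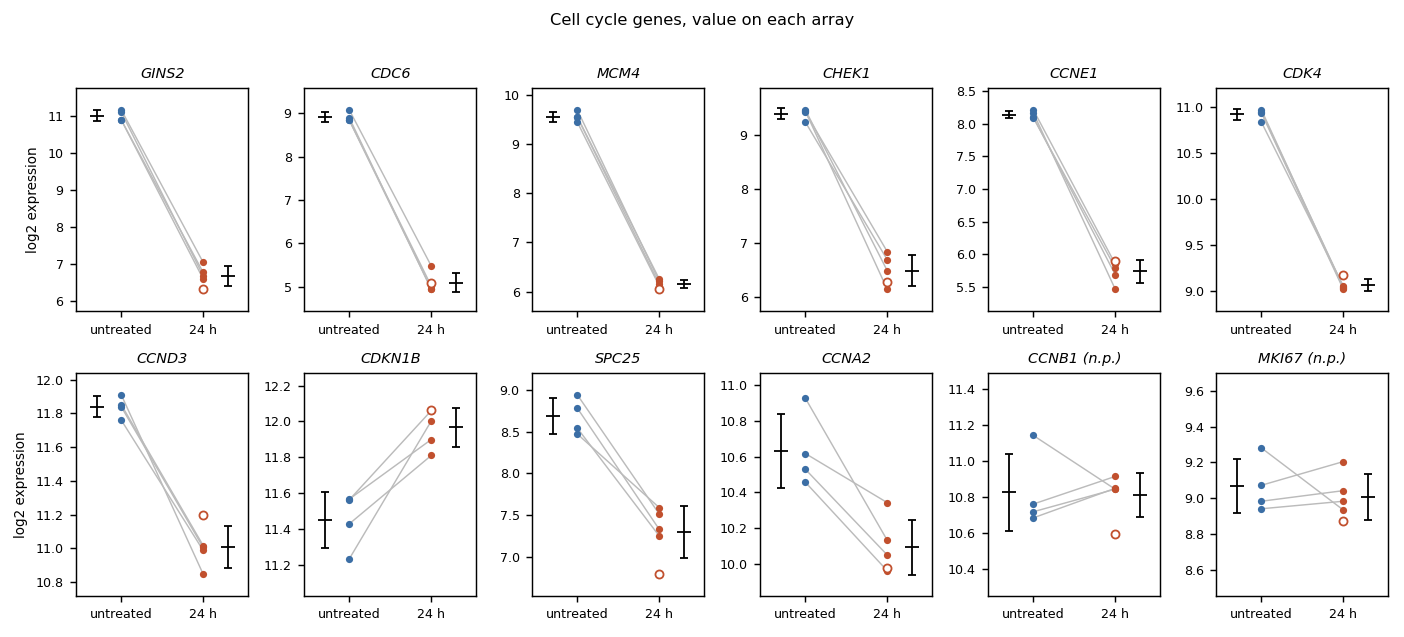
Log2 expression (y axis, its own range in each panel) of 12 cell cycle genes on the 4 untreated (blue) and 5 24 h arrays (red). Grey lines join arrays of the same run, the open circle is the 24 h array of run 5, black marks give mean and SD, and n.p. marks genes that did not pass. GINS2 to CCND3 lie lower at 24 h without overlap, CDKN1B lies higher, and CCNB1 and MKI67 overlap.

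Death genes moved in both directions. Of 31 measured members of the BCL2 and caspase families, 13 were higher and 8 lower, with a median of 0.05. BCL2L11, which encodes the death activator BIM, stood at 4.49, 4.77, 4.78 and 4.82 untreated and at 6.28, 6.21, 6.61, 5.97 and 6.51 at 24 h. The groups did not overlap, and it rose by 1.69 (SE 0.07, adjusted p = 1.15e-09), with probe sets at 1.63 and 1.74. BCL2, its survival-promoting relative, fell by 0.57 (SE 0.05, adjusted p = 1.41e-06) as a mean of probe sets at −1.18 to −0.06.

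BID, a death activator that caspases cleave, fell by 1.08, and the mitochondrial genes CYCS (−0.93) and HTRA2 (−0.67), whose products leave mitochondria during apoptosis, fell too. Caspase 4, CASP4, rose by 1.01 and the inhibitor of apoptosis BIRC2 by 0.69. MCL1 rose by 0.20 with overlapping groups and with probe sets at −0.06 to 0.38, and the call was lost without untreated replicate 1 (adjusted p = 0.0571). BCL2L1 (−0.07, adjusted p = 0.383) and PMAIP1 (0.04, adjusted p = 0.717) did not pass. BMF and BBC3 were not measured by a probe set with a single gene.

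At the cell surface, single receptors changed strongly while the medians of the lists lay near 0. P2RY14, a receptor for UDP-sugars, stood at 3.02, 3.51, 3.24 and 3.33 untreated and at 9.04, 9.15, 8.90, 9.29 and 9.67 at 24 h. IL1R2, the decoy receptor for interleukin 1, stood at 3.29, 3.56, 3.39 and 3.50 untreated and at 9.13, 9.20, 9.29, 9.46 and 9.06 at 24 h. From values below the lower quartile of all genes (4.27), both rose to 8.90 or more on every treated array, by 5.97 and 5.73 on the log2 scale. The table holds no detection call, so the size of a change from or to such low values is uncertain. The probe sets of IL1R2 gave 5.07 and 6.38. Among 38 G protein-coupled receptors and their regulators, 10 were higher and 8 lower (median −0.03). The complement receptor C3AR1 rose by 0.93 and the G protein subunit gene GNG7 by 0.79, while RGS16, a brake on G proteins, fell by 0.93, the proton-sensing receptor GPR65 by 0.91 and GNA15 by 0.65.

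Cytokine and growth factor receptors had 19 of 41 genes higher and 7 lower, with a median of 0.18. IL1R1, the signalling receptor for interleukin 1, rose by 2.52 as a mean of probe sets at 0.07 and 4.96, so the size is uncertain. IL6ST, the gp130 chain of interleukin 6 receptors, rose by 2.56, with 5 probe sets between 0.65 and 3.21. IL7R, the receptor chain that sustains B-cell precursors, stood at 11.02, 10.98, 11.10 and 11.19 untreated and at 11.53, 11.60, 11.63, 11.75 and 11.64 at 24 h, a rise of 0.54 (SE 0.06, adjusted p = 6.38e-06) with no overlap. TGFBR2 rose by 0.85 and FLT3, a receptor kinase often high in KMT2A-rearranged leukemia, by 0.93. IL21R (−0.76), TNFRSF1A (−0.51) and CSF1R (−0.34) fell.

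Receptors of the leukocyte immunoglobulin-like family, which damp or tune immune cells, were among the genes that rose. LILRB2 stood at 5.99, 5.99, 6.54 and 6.34 untreated and at 8.99, 8.98, 9.10, 9.05 and 9.03 at 24 h. The treated arrays lay close together above all untreated ones, and the rise was 2.82 (SE 0.07, adjusted p = 3.32e-11). LILRA1 rose by 4.16, with probe sets at 2.46 and 5.86, and LILRA2 by 2.08. These genes lie in a cluster of close relatives, so their probe sets may share signal, which was not tested. The whole list, of inhibitory receptors and their LILRA relatives, which lack inhibitory motifs, had 8 of 20 genes higher and 3 lower, CD22 (−0.40), KLRG1 (−0.24) and CD300A (−0.24), and its median of 0.02 became −0.02 when arrays were shifted to the same median. The call of CD300A was lost under 5 of the 9 omissions of an array (adjusted p = 0.0569 to 0.0947), and that of KLRG1 without untreated replicate 3 (0.0510).

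The B-lineage and leukemia markers had 17 of 42 genes higher and 12 lower, with a median of 0.05. CD52, the target of the antibody alemtuzumab, stood at 7.35, 7.56, 6.67 and 6.77 untreated and at 10.73, 10.77, 10.28, 10.37 and 10.50 at 24 h. The groups lay far apart, and CD52 rose 11.5-fold (log2 fold change 3.52, SE 0.11, adjusted p = 1.14e-10). CD99, used to follow residual leukemia, rose by 1.62 (SE 0.08, adjusted p = 7.73e-09), from between 8.71 and 8.98 to between 10.28 and 10.78. VPREB3 rose by 1.72, the activation marker CD69 by 1.39, and the pan-leukocyte phosphatase PTPRC (CD45) by 0.32.

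Of the B-cell markers, CD79B (0.95), CD79A (0.57) and CD24 (0.42) rose, and CD38 (−0.50), CD22 (−0.40), CD44 (−0.32) and CD48 (−0.91) fell. CD9, a tetraspanin, rose by 0.22 over untreated cells (adjusted p = 0.0113), a call lost without untreated replicate 4 (0.0538), and its difference from 8 h was 0.43 (adjusted p = 8.38e-05). CSPG4, the NG2 antigen that marks KMT2A-rearranged blasts, stood at 8.11, 8.16, 8.64 and 8.75 untreated and at 6.37, 6.32, 6.39, 6.42 and 6.55 at 24 h. This was the largest fall of the list, 2.03 (SE 0.09, adjusted p = 1.87e-09), without overlap. The fall of CD44 was lost under 4 of the 9 omissions of an array (adjusted p = 0.0544 to 0.0910) and its groups overlapped.

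Adhesion and homing receptors had 12 of 37 genes higher and 7 lower, and their median of −0.01 lay between −0.05 and 0.22 over the alternative settings. CXCR4, which holds precursors in the marrow, stood at 11.68, 11.63, 11.54 and 11.39 untreated and at 12.31, 12.32, 12.46, 12.58 and 12.43 at 24 h, a rise of 0.83 (SE 0.07, adjusted p = 1.4e-06). ITGA4, the integrin chain that binds VCAM1, moved the other way, from 9.46, 9.45, 9.29 and 9.27 to 8.44, 8.38, 8.31, 8.62 and 8.51, a fall of 0.95 (SE 0.06, adjusted p = 1.04e-07). Neither gene had overlapping groups. The chemokine receptor CCR1 rose by 2.05 and the CD2 ligand CD58 by 1.11, and ITGB7 (−0.64), the partner of ITGA4, and ICAM2 (−0.64) fell.

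Antigen presentation genes had 12 of 29 members higher and 4 lower, with a median of 0.08. TAP1, the peptide transporter, rose by 0.89 and HLA-F by 0.71, while TAP2, its partner, fell by 0.26 and PSMB9 of the immunoproteasome by 0.59. Of class II, HLA-DPB1 rose by 0.49 and HLA-DRA by 0.21, and RFXAP, a class II regulator, fell by 0.50.

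**Figure D4:**
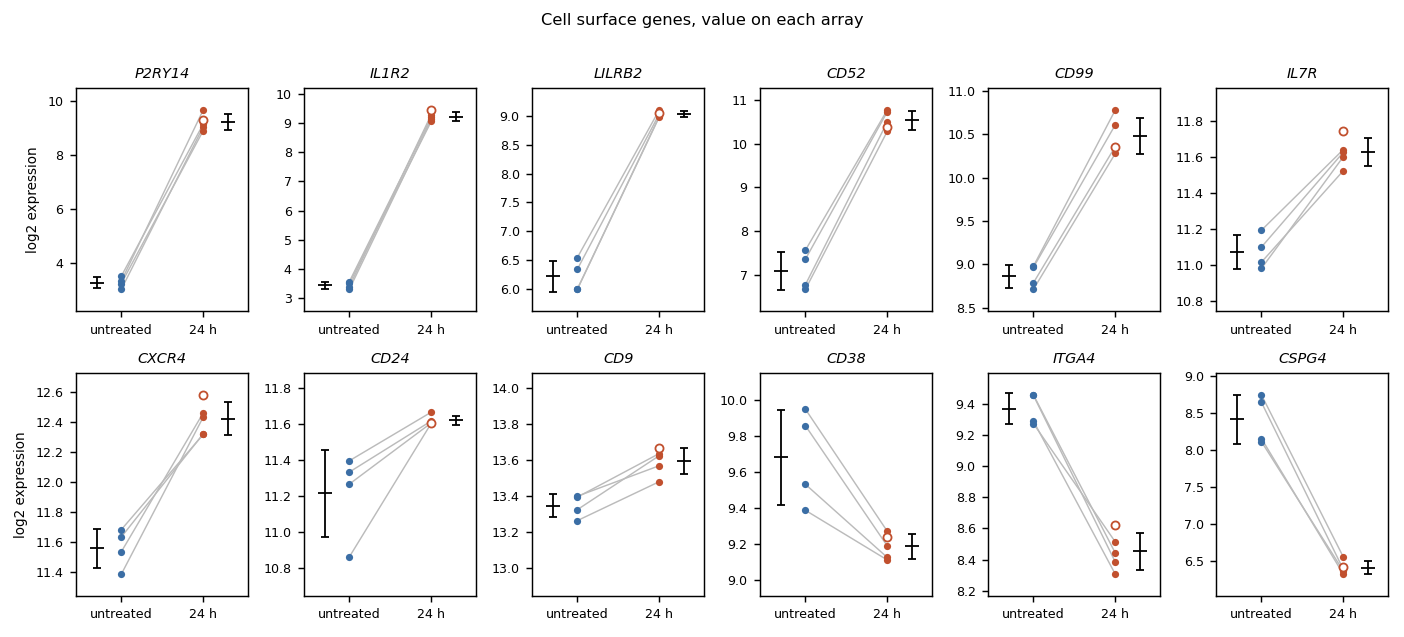
Log2 expression (y axis, its own range in each panel) of 12 surface genes on the 4 untreated (blue) and 5 24 h arrays (red). Grey lines join arrays of the same run, the open circle is the 24 h array of run 5, and black marks give mean and SD. P2RY14 to CD9 lie higher at 24 h, CD38, ITGA4 and CSPG4 lie lower, and in no panel do the groups overlap.

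Among signalling genes, several inhibitors had large rises. PIK3IP1, an inhibitor of PI3 kinase, stood at 6.36, 6.57, 6.38 and 6.74 untreated and at 9.91, 9.93, 10.02, 10.30 and 10.11 at 24 h, a rise of 3.51 (SE 0.09, adjusted p = 4.46e-11) with probe sets at 2.45 and 4.57. SESN1 (3.29) and DDIT4 (2.31), which restrain mTORC1, rose with it. Of 18 measured brakes on PI3K and mTOR signaling, 7 were higher and 2 lower, with a median of 0.11. Both that fell, DEPDC5 (−0.33) and NPRL2 (−0.16), belong to the GATOR1 complex, and the call of NPRL2 was lost under 7 of the 9 omissions of an array (adjusted p = 0.0611 to 0.135). Of 23 genes of the pathway itself, 11 were higher and 5 lower, with a median of 0.09. RRAGC (0.97) and RRAGB (0.59), GTPases that bring mTORC1 to lysosomes, and the insulin receptor substrate IRS2 (0.91) rose, and the mTOR partner MLST8 (−0.69), AKT1 (−0.23) and PIK3CD (−0.21) fell. The call of PIK3CD was lost without untreated replicate 1 (adjusted p = 0.0635) or 24 h replicate 1 (0.0572).

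The MAP kinase list had 9 of 34 genes higher and 7 lower, and its median of 0.01 became −0.03 when arrays were shifted to the same median. SPRY1, a feedback inhibitor of receptor kinases, stood at 6.36, 6.34, 6.65 and 6.70 untreated and at 10.59, 10.52, 10.54, 10.91 and 10.81 at 24 h, a rise of 4.09 (SE 0.07, adjusted p = 1.45e-12). Its relative SPRY2 fell by 0.32. MAP2K1, the kinase MEK1, rose by 0.95 (SE 0.06, adjusted p = 3.68e-08) and the phosphatase DUSP10 by 1.12. Of the immediate early genes named here, IER2 (−1.39), KLF10 (−0.55) and EGR1 (−0.27) fell and JUN rose by 0.22 as a mean of 4 probe sets at 0.05 to 0.50. The rise of JUN was 0.11 within days 2 to 4 and did not pass there, and the ERK phosphatase DUSP6, a readout of ERK activity, had a log2 fold change of −0.17 (adjusted p = 0.107). MAP2K6, which activates p38, fell by 0.70.

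In the NF-kappaB list, 7 of 29 genes were higher and 3 lower, and the median of 0.03 became −0.02 when arrays were shifted to the same median. NFKBIA, the inhibitor of NF-kappaB, stood at 10.36, 10.47, 10.10 and 10.15 untreated and at 11.95, 12.04, 11.96, 11.89 and 12.01 at 24 h, a rise of 1.73 (SE 0.06, adjusted p = 6.32e-10). TNFAIP3, the inhibitor A20, rose by 0.92. The 3 that fell were IL1B, CCL5 and CD83, and 19 did not pass. The list was not split into inhibitors and targets. IL1B, the cytokine interleukin 1 beta, stood at 8.88, 8.72, 7.61 and 8.34 untreated and at 6.21, 6.12, 5.61, 6.33 and 6.22 at 24 h (−2.34, SE 0.10, adjusted p = 2.79e-09). The chemokine CCL5 fell by 2.41 (SE 0.11, adjusted p = 4.14e-09) and the surface protein CD83 by 0.83. CFLAR, an inhibitor of caspase 8, rose by 0.62 as a mean of 11 probe sets at −0.04 to 1.15.

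Of JAK-STAT and SOCS genes, 11 of 21 were higher and 3 lower, with a median of 0.23. SOCS2 (1.28) and SOCS1 (1.47), feedback inhibitors of cytokine signalling, rose, SOCS1 as a mean of 4 probe sets at −0.02 to 3.44. STAT3 rose by 1.22 (SE 0.07, adjusted p = 1.5e-08), from between 7.58 and 7.88 to between 8.76 and 9.12. PTPN2, a phosphatase for JAK kinases, fell by 0.39, and PIM1, a STAT5 target, fell by 0.18, a call lost under 6 of the 9 omissions of an array (adjusted p = 0.0642 to 0.169).

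Interferon genes were divided, with 10 of 28 higher and 8 lower and a median of 0.13. MX1, an antiviral GTPase, stood at 5.37, 5.06, 5.49 and 5.42 untreated and at 7.99, 7.94, 8.54, 8.60 and 8.79 at 24 h, a rise of 3.01 (SE 0.10, adjusted p = 2.07e-10). IFIT1, another classic interferon target, stood at 4.95, 4.99, 4.80 and 5.09 untreated and at 3.78, 4.01, 3.80, 3.83 and 3.67 at 24 h, a fall of 1.18 (SE 0.11, adjusted p = 2.53e-06). Neither gene had overlapping groups. The nuclease ISG20 rose by 2.67 and IRF9, the DNA-binding part of ISGF3, by 1.27, whereas GBP1 (−0.42) and OAS3 (−0.32) fell with overlapping groups.

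The pre-B and B cell receptor pathway had 15 of 32 genes higher and 7 lower, with a median of 0.13. The largest change was in BLNK, the adaptor that links SYK to downstream enzymes, which stood at 6.66, 6.97, 7.08 and 7.57 untreated and at 4.54, 4.23, 4.62, 5.53 and 5.40 at 24 h. No arrays overlapped, the treated replicates 4 and 5 were the highest of their group, and BLNK fell by 2.35 (SE 0.09, adjusted p = 1.15e-09). BANK1, another adaptor, fell by 2.08 (SE 0.17, adjusted p = 6.37e-07) and the kinase BTK by 0.40. VAV3, an exchange factor of the same pathway, rose by 1.23 (SE 0.07, adjusted p = 1.38e-08), the adaptor DAPP1 by 0.69 and SYK by 0.25. IGLL1, a surrogate light chain gene of the pre-B cell receptor, fell by 0.59, and LYN had a log2 fold change of 0.12 (adjusted p = 0.0585).

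**Figure D5:**
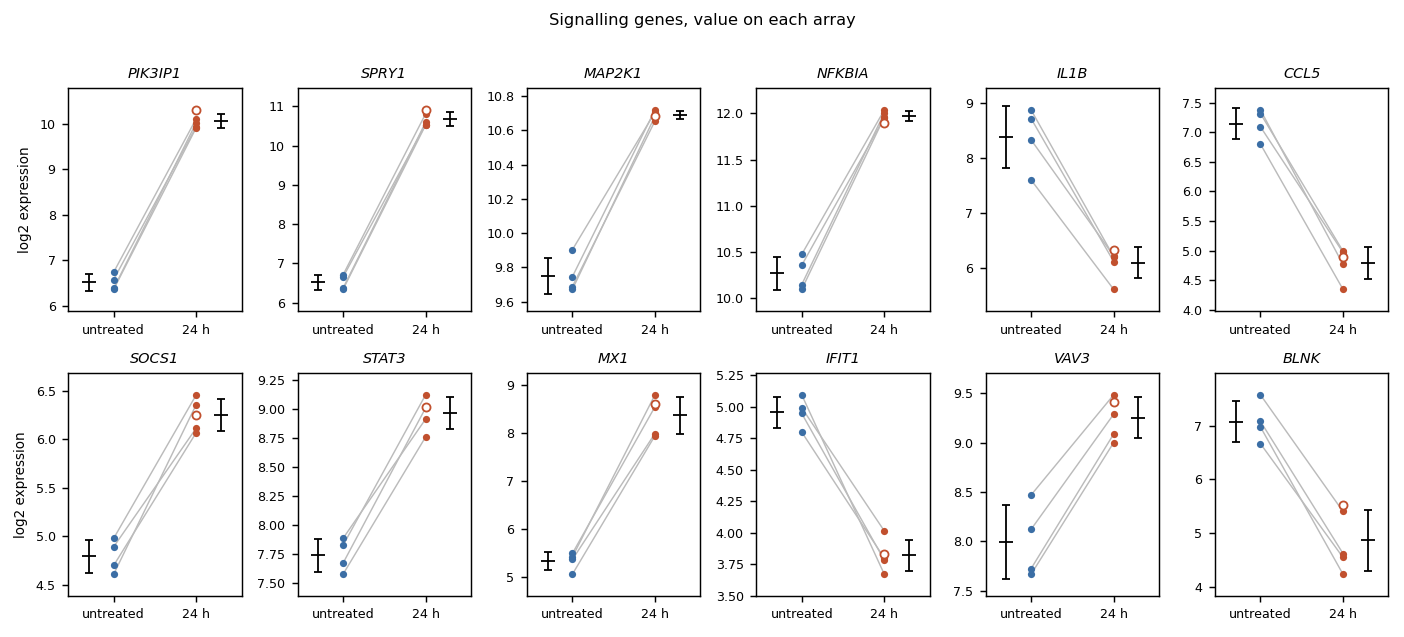
Log2 expression (y axis, its own range in each panel) of 12 signalling genes on the 4 untreated (blue) and 5 24 h arrays (red). Grey lines join arrays of the same run, the open circle is the 24 h array of run 5, and black marks give mean and SD. IL1B, CCL5, IFIT1 and BLNK lie lower at 24 h and the other 8 genes higher, without overlap in any panel.

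Markers of the B lineage moved in both directions. PAX5, the factor that fixes B-lineage fate, lay at 8.66, 8.82, 8.74 and 8.70 untreated and at 8.75, 8.80, 8.86, 8.73 and 8.74 at 24 h, a log2 fold change of 0.06 (95% interval −0.06 to 0.17, adjusted p = 0.436). TCF3, which encodes the E proteins E12 and E47, had a log2 fold change of 0.09 (adjusted p = 0.197). Of 9 measured B-lineage precursor markers 5 were higher and 3, DNTT, IGLL1 and CD22, were lower, and their mean level was 9.94 to 9.96 untreated and 9.87 to 10.1 at 24 h, and none had a mean below the lower quartile of all genes in both groups.

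The inhibitors of E proteins changed in opposite ways. ID3 stood at 10.78, 10.88, 10.92 and 10.50 untreated and at 9.10, 9.21, 8.91, 8.97 and 8.98 at 24 h, and ID2 stood at 7.55, 7.54, 8.25 and 7.53 untreated and at 10.04, 10.07, 10.07, 9.87 and 9.88 at 24 h. ID3 fell by 1.73 (SE 0.08, adjusted p = 6.02e-09) and ID2 rose by 2.29 (SE 0.10, adjusted p = 3.48e-09), without overlap in either. FOXO1 rose by 1.32 and XBP1 by 0.68, and the repressors BCL6 (−0.92) and IKZF2 (−0.66) fell. Of 32 B-lineage transcription factors, 11 were higher and 7 lower, with a median of 0.09. EBF1 was not measured by a probe set with a single gene.

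V(D)J recombination genes, which rearrange the immunoglobulin loci, had 7 of 12 members lower and 2 higher, with a median of −0.27. DNTT, the terminal transferase of early precursors, stood at 5.95, 5.90, 6.01 and 7.29 untreated and at 3.96, 4.15, 4.29, 5.13 and 4.88 at 24 h, a fall of 1.95 (SE 0.09, adjusted p = 6.02e-09). Untreated replicate 4 was far above the others of its group, and its treated partner, replicate 5, and replicate 4 were the highest of theirs, and the difference within runs lay between −2.41 and −1.72. PRKDC fell by 1.16 (probe sets at −1.52 to −0.46) and XRCC5 by 0.56, both of DNA end joining. RAG1 had a log2 fold change of 0.14 (adjusted p = 0.226).

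Genes tied to KMT2A-rearranged leukemia had 11 of 19 members higher and 2 lower, with a median of 0.26. LGALS1 rose by 1.64, LMO2 by 1.46, JMJD1C by 0.98 and MEIS1, the cofactor of HOXA proteins, by 0.64 (SE 0.05, adjusted p = 6.87e-07). PBX3 (−0.33) and LAMP5 (−0.24) fell. HOXA9 was not measured by a probe set with a single gene.

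Genes known as markers of other blood cells had unequal levels in this cell line. Of 25 T and NK cell markers 2 were higher and 2 lower (median −0.05), and 12 lay below the lower quartile of all genes in both groups. The summed level of these markers was 120.4 to 121.8 untreated and 120.8 to 122.1 at 24 h. GZMA, a granule protease, rose by 1.39 and KLRB1 by 1.21, and GATA3 (−0.74) and ZAP70 (−0.37) fell. The T-cell kinase genes LCK and ZAP70 and the granule gene NKG7, chosen here after their values were seen for their level, had untreated means of 8.82, 8.94 and 8.62 and 24 h means of 8.86, 8.60 and 8.77. Of 23 monocyte and granulocyte markers 17 lay below the lower quartile, 2 were higher and 7 lower (median −0.04), with a summed level of 94.4 to 96.9 untreated and 92.5 to 94.3 at 24 h. CTSG fell by 1.18, CEBPA by 0.61, and LYZ rose by 0.38. Of 13 erythroid and platelet markers 5 lay below the lower quartile, GP9 rose by 1.31 and ITGA2B fell by 0.16 (median −0.07), with summed levels of 60.4 to 61.9 and 61.0 to 62.7. Whether cells of other types took part in these changes was not tested.

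The largest rises included genes best known from other tissues. TMEM100, a membrane protein gene of vessels and sensory neurons, stood at 3.11, 3.55, 3.44 and 3.57 untreated and at 9.61, 9.71, 9.66, 9.47 and 9.57 at 24 h. MORC1, a germline gene, stood at 3.52, 2.99, 2.48 and 2.85 untreated and at 9.04, 9.13, 9.12, 8.59 and 8.95 at 24 h. In both, all 5 treated arrays lay far above the untreated ones, by 6.21 and 6.08, though the untreated values lay below the lower quartile of all genes and the sizes are uncertain. MORC1 stood out against 8 h, when its log2 fold change over untreated cells was 1.90. FMO5, a flavin monooxygenase gene, rose by 5.03, with probe sets at 4.19 and 5.87, OR7A5, an odorant receptor gene, by 4.49, and ZBTB16, a transcriptional repressor and known GR target, by 4.87.

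Promoters of the 100 genes with the largest rise were searched for the core letters of the GR site. The letters AGAACA, on either strand, stood upstream of 7 of the 74 such genes with a promoter in the table (9.5%), against 8.8% of genes tested. GR is known to act largely from distant enhancers, which this window does not cover.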

How the data were processed

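Total RNA of RS4;11 cells was measured on 14 arrays. The authors ran RMA from affy on the arrays, a package whose version is not given in the sources used here, left out 1 untreated array after quality control, and deposited log2 expression values. Their variance filter and mean per gene come later and are not in these values. The methods name Agilent arrays of type hgu133a2, whereas the labels name an Affymetrix protocol and the probe sets carry Affymetrix names. An array holds 1 value per probe set with no count behind it, so the number of arrays limits the precision.

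Groups came from the sample labels. Of the probe sets, 1043 carried several genes and 2164 none and were left out, and 19058 of the kept ones were matched to RefSeq by gene ID. Probe sets of a gene were averaged (7653 genes had 1). limma 3.58.1 in R 4.3.3 (lmFit and eBayes, 7 residual degrees of freedom) fitted the 3 groups with the run as a fixed block, and p-values were adjusted over 11963 genes. Of all genes, 6091 had an unadjusted p below 0.05. The runs pair the arrays: residuals of the same run correlated with r between 0.299 and 0.537 in all 13 pairs of groups, and between 0.320 and 0.438 in the 4 pairs of untreated and 24 h arrays, while the 52 pairs of different run and group ranged from −0.469 to 0.473. The comparison was also run on simulated data with 11963 genes, of which only 25 were changed at each size and direction. It recovered every change of 1 or 2 on the log2 scale, 88% of falls and 80% of rises of 0.5. Of changes of 0.25 it recovered 36% of falls and 32% of rises, with 8 false calls in all. In the real data 5525 genes passed, so the adjusted cutoff lies at a different unadjusted p and these rates do not carry over.

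The members and the 38 gene lists, written from common knowledge of the pathways, were chosen with earlier results of these data known. A list is described by its counts and median beside all genes, with no test of its own. Of 1300 list genes 1135 were measured. Named genes are the 10 largest rises and falls, a set of key genes, and up to 3 members of each list that rose and fell most. A subset was printed after the values were seen. Promoters printed are those of 4 replication genes with large falls that hold E2F letters, which adds TIPIN to the named genes. Not every replication gene was open to this choice, so these need not be the largest falls. Promoters came from RefSeq (GRCh38.p14) by symbol.

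Alternatives were no block, the title number, the day or a random run as the block, subsets of arrays, other treatments of probe sets, 2 filters, 3 normalizations, array weights, a trended and robust eBayes, stricter thresholds and each array left out in turn.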

Additional observations from a re-analysis of the deposited data

Results flagged for a closer look

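Among 518 groups of values (259 named genes in untreated and in 24 h arrays), 23 had an array far from the rest of its group, by the gap to its nearest neighbour as a share of the group's whole range. Chance gives this in about 1 in 20 groups. In untreated cells, replicate 4 stood high for DNTT (share 0.919; 7.29 against 6.01), CCNB1 (0.832; 11.14 against 10.76) and LYZ (0.847; 5.14 against 4.68). Untreated replicate 3 stood high for ID2 (0.980; 8.25 against 7.55) and TXNIP (0.834) and low for CENPN (0.834) and EXO1 (0.868). Untreated replicate 2 stood high for ICAM2 (0.908) and low for NR3C1 (0.853), and untreated replicate 1 low for BCL2L11 (0.849).

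At 24 h, replicate 4, the array of the run without an untreated partner, stood low for GZMA (0.939; 4.52 against 5.21), MCM10 (0.895; 5.59 against 5.96) and CCNB1 (0.774), and high for CDK4 (0.773), FKBP4 (0.794) and ITGB7 (0.786). Replicate 3 stood high for C3AR1 (0.764) and low for CD79B (0.747; 10.18 against 10.56). Replicate 5 stood high for CDC6 (0.724) and GBP1 (0.821). Replicate 1 stood high for CD24 (0.790) and low for DEPDC5 (0.791), and replicate 2 stood high for GUSB (0.729).

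For 3 named genes, the changes over untreated cells at 8 h and at 24 h passed in opposite directions, and the difference between 24 h and 8 h was tested in limma. CD9 was at −0.21 at 8 h and at 0.22 at 24 h, a difference of 0.43 (adjusted p = 8.38e-05). SYK was at −0.16 and 0.25, a difference of 0.41 (adjusted p = 1.5e-05). GBP1 was at 0.46 and −0.42, a difference of −0.88 (adjusted p = 6.32e-06). Both comparisons share the untreated arrays.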

How the results depend on the processing

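The runs pair the arrays, and the count of genes was 2336 higher and 2505 lower with no block, and 2599 higher and 2822 lower with the title number as the paired block. Leaving out each array in turn gave 2447 to 2578 higher and 2633 to 2821 lower. Testing every probe set on its own gave 4138 higher and 4187 lower among 19070 probe sets, and a threshold of at least 2-fold left 367 and 417. Within day 1 the counts were 2181 and 2292, and within days 2 to 4 they were 2398 and 2681. Shifting arrays to the same median moved the median of all genes to −0.06 and gave 2308 higher and 3337 lower. All other settings stayed within 1.5 times of the counts. Among settings with 1 value per gene, no gene was called in opposite directions apart from 10 with the probe set of the highest mean. Calls of single probe sets were not compared with those of their genes. Of 113 named genes with several probe sets, 19 had probe sets with changes of opposite sign.

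With the probe set of the highest mean, ATP5F1C turned to −0.0676, KLF4 to 0.0119 and PFKFB2 to −0.19, and under the variance filter MCL1 turned to −0.055. Of 259 named genes, 14 lost their call with no block, 22 within day 1 and 18 when some array was left out, and among the 18 were CD163 (adjusted p up to 0.179), ITGA2B (up to 0.109) and RPL37A (up to 0.0760). Named genes whose calls were lost within day 1 include AKT1, ATM, CD9, CSF1R, DEPDC5, EGR1, EIF3H, HLA-DRA, KLF4, LDHA, OAS3, PFKFB2, RB1, TAP2, TFDP2 and XPA, and within days 2 to 4 ATP5F1E, CD44, HK1, JUN, LAMP5, MCL1, ORC4, PIK3CD and SLC7A5. The share of replication promoters with E2F letters was 38.8% over the whole window, which adds the 50 bases after the start, against 4.7% of genes tested. The number of arrays limits small changes, and changes below 0.5 on the log2 scale can have been missed.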
